A study of Homo sapiens with 4 samples.

Results

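The genes described here are 40 interferon-stimulated genes, chosen by name out of the 43622 genes listed for each library. All 40 were found in every table, among them DDX58, whose current symbol is RIGI. They were measured by RNA sequencing of 2 human lung adenocarcinoma lines, A549 and H1993, each grown as spheroids in suspension or attached to a dish, with 1 library per line and culture. The study set out to compare the 2 cultures for genes of triglyceride synthesis and treated spheroids as cells with stem-like properties, so the interferon genes were not its stated subject. The 4 groups were A549 spheroids, A549 adherent cells, H1993 spheroids and a library labelled H1993 adherent. The labels give no genotype change, no added interferon and no other agent for any of them, and both lines are established, so all cells of a line descend from 1 tumour.

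Interferons are cytokines, and many of type I and type III are released by cells that sense viral nucleic acid. Type I and type III interferons bind their receptors, activate the kinases JAK1 and TYK2, and so assemble a complex holding STAT2 and IRF9 that binds the interferon-stimulated response element in the promoters of target genes. Type II interferon acts through another promoter element, the gamma-activated site. The products of the target genes sense, degrade or trap viral RNA and proteins, and many tumour lines express part of the set without added interferon.

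Promoter sequences are shown first because genes with the same regulatory element, which most members with a known promoter hold, moved in different directions. RefSeq (GRCh38.p14) gave an upstream sequence for 31 of the 40 members. The 250 bases before each start were searched on both strands for the core of the interferon-stimulated response element, spelled as GAAA followed by any 2 bases and a second GAAA, and for the gamma-activated site, spelled as TTC, any 3 bases and GAA. The element core was in 21 of the 31 members (67.7%), against 1014 of 27305 genes in RefSeq (3.71%). The gamma-activated site was in 9 members (29.0%), against 2208 genes (8.09%). The members were named for their response to interferon, so these shares describe the list and were not tested. The 7 promoters below were chosen after the values were seen, for the direction in which their genes moved, and capitals mark the element core or, where that core was not found, the gamma-activated site. Each reads toward its gene. ISG15 (chr1:1013247-1013496, plus strand) and IFIH1 (chr2:162318685-162318934, minus strand) belong to genes that were higher in H1993 spheroids than in the library labelled H1993 adherent and than in A549 spheroids.
ISG15: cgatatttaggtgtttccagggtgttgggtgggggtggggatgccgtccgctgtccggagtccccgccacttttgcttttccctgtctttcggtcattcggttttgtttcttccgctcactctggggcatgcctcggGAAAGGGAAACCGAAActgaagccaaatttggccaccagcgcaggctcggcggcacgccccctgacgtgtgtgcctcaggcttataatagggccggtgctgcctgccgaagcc
IFIH1: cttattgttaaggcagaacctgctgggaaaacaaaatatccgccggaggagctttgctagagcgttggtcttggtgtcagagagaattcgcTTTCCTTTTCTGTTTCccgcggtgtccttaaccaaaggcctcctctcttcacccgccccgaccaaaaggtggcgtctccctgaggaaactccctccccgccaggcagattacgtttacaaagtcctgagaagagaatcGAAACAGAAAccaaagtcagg
IFI6 (chr1:27672193-27672442, minus strand) and OAS3 (chr12:112938224-112938473, plus strand) belong to the genes with the lowest folds of H1993 spheroids over the library labelled H1993 adherent.
IFI6: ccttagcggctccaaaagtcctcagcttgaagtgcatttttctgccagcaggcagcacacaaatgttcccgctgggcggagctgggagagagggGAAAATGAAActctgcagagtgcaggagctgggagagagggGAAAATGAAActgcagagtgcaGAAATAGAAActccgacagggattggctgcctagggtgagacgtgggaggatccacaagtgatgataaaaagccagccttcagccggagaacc
OAS3: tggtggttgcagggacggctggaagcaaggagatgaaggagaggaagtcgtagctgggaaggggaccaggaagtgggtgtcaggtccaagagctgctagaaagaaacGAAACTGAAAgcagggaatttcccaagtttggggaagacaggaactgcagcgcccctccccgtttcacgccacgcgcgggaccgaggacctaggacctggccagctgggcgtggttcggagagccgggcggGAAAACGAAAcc
OAS1 (chr12:112906712-112906961, plus strand) and ISG20 (chr15:88638766-88639015, plus strand) belong to genes that were higher in A549 spheroids than in A549 adherent cells.
OAS1: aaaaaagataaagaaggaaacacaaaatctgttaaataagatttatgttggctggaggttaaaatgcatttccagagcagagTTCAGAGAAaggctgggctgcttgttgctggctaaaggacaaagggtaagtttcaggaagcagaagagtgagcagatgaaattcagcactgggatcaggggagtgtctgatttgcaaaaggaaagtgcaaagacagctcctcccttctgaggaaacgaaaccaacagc
ISG20: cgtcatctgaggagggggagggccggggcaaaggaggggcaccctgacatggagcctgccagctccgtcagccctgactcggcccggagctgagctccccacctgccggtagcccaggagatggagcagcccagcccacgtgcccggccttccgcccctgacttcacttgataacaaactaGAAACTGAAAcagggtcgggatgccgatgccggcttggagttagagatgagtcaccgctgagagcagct
IRF1 (chr5:132490774-132491023, minus strand) belongs to a gene that was lower in the spheroid library of both lines.
IRF1: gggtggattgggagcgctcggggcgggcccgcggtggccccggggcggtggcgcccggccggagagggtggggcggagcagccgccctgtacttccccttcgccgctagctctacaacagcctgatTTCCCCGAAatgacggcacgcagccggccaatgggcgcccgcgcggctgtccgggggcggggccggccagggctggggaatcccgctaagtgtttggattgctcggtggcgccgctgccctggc
In ISG15 the capitals hold 2 overlapping matches, and in IFI6 they mark 3 separate ones. The element core was thus present both in genes that were higher and in genes that were lower in spheroids. Among members with a promoter entry it was in 4 of the 5 that were higher in A549 spheroids than in A549 adherent cells, in 3 of the 5 that were lower and in 11 of the 17 that were neither. For H1993 spheroids over the library labelled H1993 adherent it was in 2 of the 3 higher, 10 of the 15 lower and 6 of the 9 that were neither. A match describes letters in this window and is not evidence of binding, and the absence of one says nothing of the factor. OAS1, near its end, and DDX58 hold GAAACGAAA, and CMPK2 holds it on the other strand near the end of 1 of its 3 sequences. IFI35 holds GAAATGAAA. In these 4 members, all without the core, GAAA recurs at a closer spacing that the search did not cover. The counts of members with and without the core thus hold for the spelled pattern alone.

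Total reads over exons were between 15331121 and 17681746 per library, and read counts below are these exon reads. Across 14759 autosomal genes the library labelled H1993 adherent correlated at a Pearson coefficient of 0.845 with the H1993 spheroid library and of 0.947 with the adherent A549 library, a description across genes that are not independent. The H1993 spheroid library had coefficients of 0.809 with A549 spheroids and 0.813 with A549 adherent cells. The library labelled H1993 adherent had 0.87 with A549 spheroids. CDKN2A and CDKN2B, which A549 has lost, had 308 and 371 reads in H1993 spheroids, against 75 and 89 in that library and none in either A549 library, while HNF4A had 5 reads in H1993 spheroids, 1 in that library, 493 in A549 spheroids and 475 in A549 adherent cells. MET, which is amplified in H1993, had 26102 reads in H1993 spheroids, 6549 in the library labelled H1993 adherent, 4083 in A549 spheroids and 4545 in A549 adherent cells. The label is therefore kept as a label throughout. The comparison of the 2 A549 libraries and that of the 2 spheroid libraries do not hold this library, and the other comparisons do. With 1 library per group no difference has a replicate check: each fold compares 2 libraries, not 2 conditions, and its interval is the exact 95% interval of the 2 counts, which covers counting error only. A gene was called higher or lower when it passed a filter on low counts, which 15273 genes did, differed by 2-fold or more and had an interval clear of no change.

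Of the 40 members 34 passed the filter. IFI44L, MX2, DHX58, RSAD2, XAF1 and EPSTI1 did not, with at most 17 reads each except for IFI44L, which had 77 in the library labelled H1993 adherent. The summed level of the 40 members was 921 TPM in A549 spheroids against 501 TPM in A549 adherent cells, and 715 TPM in H1993 spheroids against 1086.6 TPM in the library labelled H1993 adherent, where TPM is the deposited transcript level per exon length. Much of each sum came from a few genes. LGALS3BP, a secreted galectin-binding glycoprotein, led 3 libraries with 186 TPM in A549 spheroids, 109 TPM in A549 adherent cells and 200.0 TPM in H1993 spheroids, and was next to IFI6 in the library labelled H1993 adherent at 257 TPM against 276 TPM. IFITM2 was also among the top 5 in all 4 libraries, at 74.5 to 156 TPM, and IFITM3 in all but H1993 spheroids, at 45.5 to 109 TPM. The remaining places differed. They held OAS1 at 122 TPM and IFI6 at 86.9 TPM in A549 spheroids, and OAS3 at 37.0 TPM and OAS1 at 33.1 TPM in A549 adherent cells. In H1993 spheroids they held ISG15 at 145 TPM, IFI35 at 54.9 TPM and IFIT2 at 49.3 TPM. OAS3 was at 38.4 TPM in the library labelled H1993 adherent. Low members reached under 1 TPM in all 4 libraries, as MX1, a dynamin-like GTPase that blocks incoming viruses, did with 0.637 TPM at most.

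**Figure D1:**
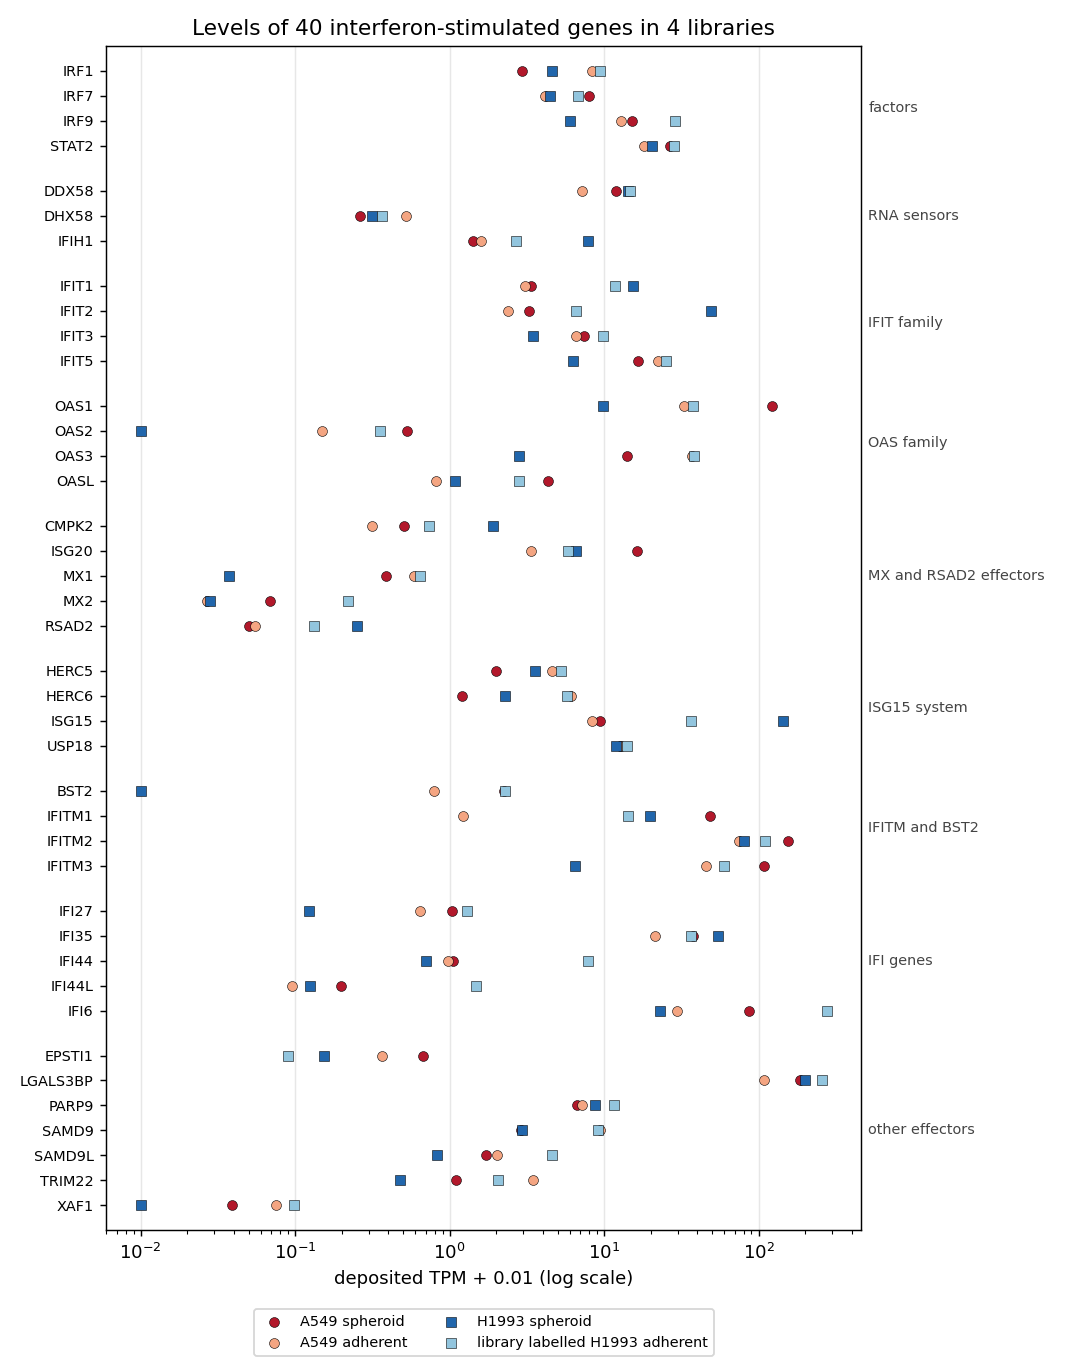
Deposited TPM plus 0.01 (log axis) of the 40 genes, 1 point per library, grouped by role. Red circles are A549 spheroids, orange circles A549 adherent cells, dark blue squares H1993 spheroids and light blue squares the library labelled H1993 adherent. ISG15 and IFIT2 stand highest in H1993 spheroids, OAS1 in A549 spheroids and IFI6 in the library labelled H1993 adherent, and OAS2, BST2 and XAF1 are at 0 in H1993 spheroids.

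Between the A549 libraries, members moved both ways. In spheroids over adherent cells 9 of the 34 were higher and 6 lower (26.5% and 17.6%), where 12.4% and 10.3% of all 15273 genes were. The median log2 fold of the members was 0.44, and that of all genes was 0.00. The higher ones were IFI6, IFITM1, IFITM2, IFITM3, OAS1, OAS2, OASL, ISG20 and IRF7, and the lower ones OAS3, IRF1, HERC5, HERC6, TRIM22 and SAMD9. In such bulk samples a smaller share of cells expressing a gene and less RNA per cell cannot be told apart.

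H1993 spheroids over the library labelled H1993 adherent gave mostly lower members. Of the 34, 18 were lower and 4 higher (52.9% and 11.8%), where 18.0% and 17.0% of all genes were. Their median log2 fold was -1.23, and that of all genes was 0.00. The 4 higher ones were IFIT2, ISG15, IFIH1 and CMPK2, which encode effectors and a sensor of foreign RNA. OAS2 and BST2 had no read in H1993 spheroids, and with both set at the bound that a floor of 3 reads allows, the median was again -1.23.

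The 2 pairs share no library, so their calls can be set side by side. The 5 members IFI6, IFITM3, OAS1, OAS2 and OASL were higher in the A549 pair and lower in the H1993 pair, and no member was the other way round. OAS3, IRF1, TRIM22, SAMD9 and HERC6 were lower in both, and no member was higher in both. Of the 34 members 17 (50.0%) had the same sign in both pairs, where 55.6% of all genes did. Across the 34 members the 2 folds had a Pearson correlation of 0.15 and a Spearman correlation of 0.10, against 0.28 and 0.21 across all genes, given as a description since the genes of each pair share libraries and depth.

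**Figure D2:**
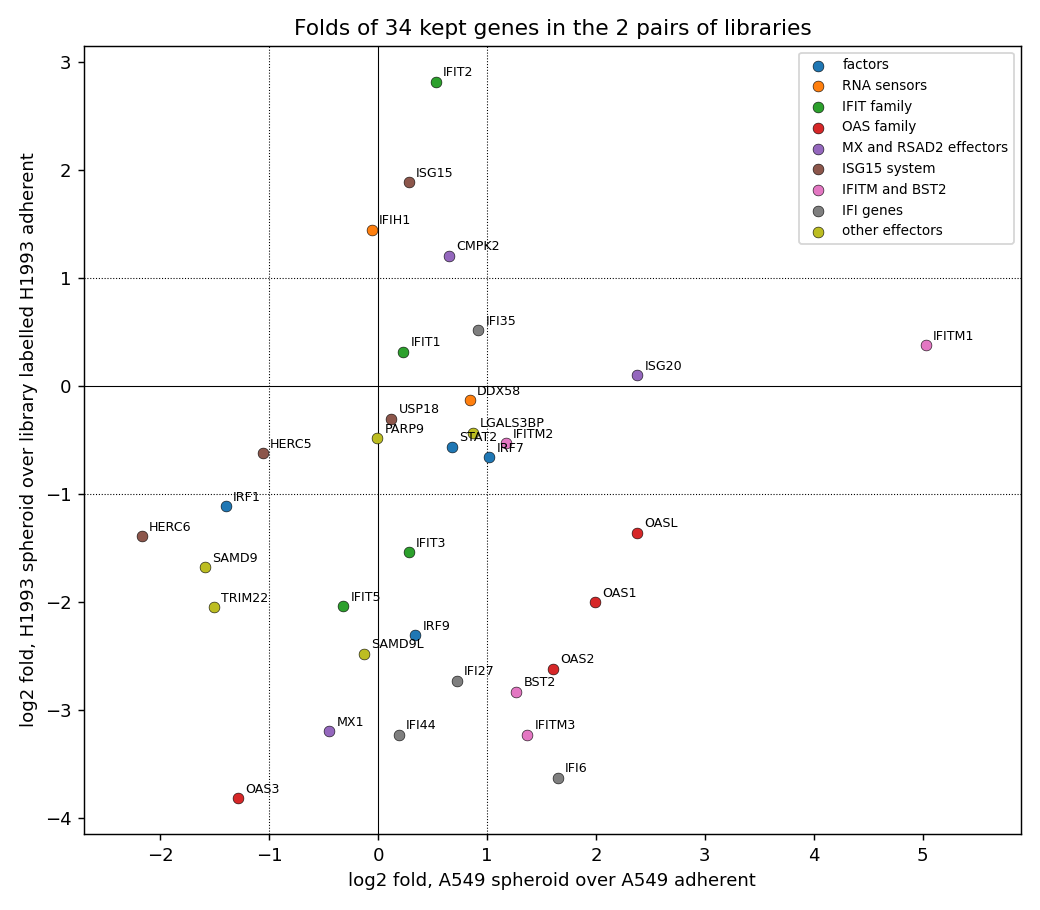
Log2 fold of A549 spheroids over A549 adherent cells (x axis) and of H1993 spheroids over the library labelled H1993 adherent (y axis) for the 34 kept genes, 1 point per gene, colored by role, with dotted lines at 2-fold. IFI6, IFITM3, OAS1, OAS2 and OASL lie at the lower right with BST2, whose A549 interval of -0.06 to 3.71 holds no change, OAS3, HERC6, SAMD9, TRIM22 and IRF1 at the lower left, and no gene lies past 2-fold in the upper right.

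The factors that carry the interferon signal come first. STAT2 had 848 reads in A549 spheroids against 505 in A549 adherent cells, and 528 in H1993 spheroids against 887 in the library labelled H1993 adherent. Its log2 folds were 0.68 (0.52 to 0.85) and -0.56 (-0.72 to -0.41), under 2-fold in both lines and opposite in sign. IRF9, its partner in the complex, had 297 reads in A549 spheroids against 224 in A549 adherent cells, and 98 in H1993 spheroids against 559 in the library labelled H1993 adherent. The log2 fold of IRF9 was 0.34 (0.09 to 0.60) in the A549 pair and -2.31 (-2.65 to -2.02) in the H1993 pair. At most 1% of its reads were unique, since AL136295.5 overlaps it on the same strand, so how its reads were assigned is uncertain, and with unique reads alone the H1993 value was -1.74 and IRF9 no longer passed the filter.

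IRF1, a transcription factor that type II interferon induces strongly, had 118 reads in A549 spheroids against 301 in A549 adherent cells, and 152 in H1993 spheroids against 374 in the library labelled H1993 adherent. It was lower in both spheroid libraries, with log2 folds of -1.40 (-1.73 to -1.10) and -1.11 (-1.40 to -0.84). IRF7, which amplifies interferon production, had 108 reads in A549 spheroids against 50 in A549 adherent cells, and 50 in H1993 spheroids against 91 in the library labelled H1993 adherent. Its log2 fold of 1.02 (0.55 to 1.56) in the A549 pair lay just past 2-fold and was 0.91 when libraries were scaled by their size alone, and that of the H1993 pair was -0.66 (-1.21 to -0.17).

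The cytosolic sensors of viral RNA are also interferon-induced. IFIH1, which encodes MDA5 and binds long double-stranded RNA, had 33 reads in A549 spheroids against 33 in A549 adherent cells, and 152 in H1993 spheroids against 62 in the library labelled H1993 adherent. Its log2 fold was -0.06 (-0.80 to 0.68) in the A549 pair and 1.45 (1.04 to 1.93) in the H1993 pair. DDX58, which encodes RIG-I, had 270 reads in A549 spheroids against 144 in A549 adherent cells, and 263 in H1993 spheroids against 327 in the library labelled H1993 adherent. Neither of its folds reached the limit, with log2 values of 0.84 and -0.13. DHX58, a regulator of both, had 5 to 9 reads in every library and did not pass the filter.

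The IFIT genes encode proteins that bind foreign RNA and block its translation, and 4 of them lie in a row on chr10 in the order IFIT2, IFIT3, IFIT1 and IFIT5. IFIT2 had 69 reads in A549 spheroids against 45 in A549 adherent cells, and 862 in H1993 spheroids against 137 in the library labelled H1993 adherent. IFIT3 had 102 reads in A549 spheroids against 80 in A549 adherent cells, and 39 in H1993 spheroids against 133 in the library labelled H1993 adherent. In H1993 spheroids these neighbours, 18618 bases apart, thus went opposite ways, with log2 folds of 2.82 (2.58 to 3.11) for IFIT2 and -1.54 (-2.14 to -1.06) for IFIT3.

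IFIT1 had 80 reads in A549 spheroids against 65 in A549 adherent cells, and 304 in H1993 spheroids against 276 in the library labelled H1993 adherent. Its log2 folds between cultures were under 2-fold in both lines, at 0.23 (-0.25 to 0.73) and 0.32 (0.08 to 0.56). IFIT5 had 346 reads in A549 spheroids against 414 in A549 adherent cells, and 108 in H1993 spheroids against 511 in the library labelled H1993 adherent, which gave log2 folds of -0.32 (-0.53 to -0.11) and -2.04 (-2.37 to -1.76). No IFIT gene passed 2-fold between the A549 libraries, and 1 was higher and 2 lower between the H1993 ones.

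The OAS genes make 2′-5′ oligoadenylates that switch on the RNA-degrading enzyme RNase L, and OASL is a family member without that activity. OAS1 had 3134 reads in A549 spheroids against 754 in A549 adherent cells, and 208 in H1993 spheroids against 951 in the library labelled H1993 adherent. OAS3 had 598 reads in A549 spheroids against 1404 in A549 adherent cells, and 99 in H1993 spheroids against 1616 in the library labelled H1993 adherent. In A549 the 2 genes, which lie 5130 bases apart on chr12, moved in opposite directions, with log2 folds of 1.99 (1.88 to 2.11) for OAS1 and -1.29 (-1.43 to -1.16) for OAS3. Between the H1993 libraries both were lower, at -2.00 (-2.23 to -1.79) and -3.82 (-4.15 to -3.55).

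OAS2, the next gene along, was scarce, with 17 reads in A549 spheroids against 4 in A549 adherent cells, and 0 in H1993 spheroids against 11 in the library labelled H1993 adherent. With a floor of 3 reads set there, it was 3.23-fold lower in H1993 spheroids, and its counting interval allows log2 folds up to -1.14. Its A549 log2 fold was 1.61 (0.41 to 4.05). OASL had 79 reads in A549 spheroids against 13 in A549 adherent cells, and 16 in H1993 spheroids against 50 in the library labelled H1993 adherent. Its log2 folds were 2.38 (1.68 to 3.51) and -1.36 (-2.37 to -0.62). All 4 OAS genes were thus lower between the H1993 libraries, and 3 of 4 were higher between the A549 ones.

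The IFITM proteins sit in membranes and hinder viral fusion. IFITM3 had 765 reads in A549 spheroids against 282 in A549 adherent cells, and 37 in H1993 spheroids against 412 in the library labelled H1993 adherent. The log2 folds of IFITM3 were 1.37 (1.18 to 1.58) and -3.23 (-3.82 to -2.81). IFITM2 had 1246 reads in A549 spheroids against 529 in A549 adherent cells, and 526 in H1993 spheroids against 864 in the library labelled H1993 adherent, with log2 folds of 1.17 (1.02 to 1.32) and -0.53 (-0.69 to -0.37).

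IFITM1 had 270 reads in A549 spheroids against 6 in A549 adherent cells, and 91 in H1993 spheroids against 79 in the library labelled H1993 adherent. Its log2 fold of 5.03 (4.29 to 6.89) between the A549 libraries was the highest of the 34 members. The model of IFITM1 lies inside that of IFITM2 on the same strand, and 21 of its reads were unique in A549 spheroids against 0 in A549 adherent cells. With unique reads alone it did not pass the filter and its value was 3.50, so the size of its fold is uncertain. BST2, or tetherin, which holds budding virus on the cell surface, had 13 reads in A549 spheroids against 4 in A549 adherent cells. It had 0 in H1993 spheroids against 13 in the library labelled H1993 adherent. With a floor of 3 reads set in H1993 spheroids it was 3.82-fold lower there, and its counting interval allows log2 folds up to -1.42.

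ISG15 is a ubiquitin-like protein, HERC5 attaches it to targets, HERC6 is a related ligase and USP18 removes it. ISG15 had 46 reads in A549 spheroids against 36 in A549 adherent cells, and 581 in H1993 spheroids against 176 in the library labelled H1993 adherent. Its log2 fold was 0.28 (-0.37 to 0.96) in the A549 pair and 1.89 (1.66 to 2.16) in the H1993 pair. HERC6 had 36 reads in A549 spheroids against 162 in A549 adherent cells, and 56 in H1993 spheroids against 170 in the library labelled H1993 adherent. The ligase gene was lower in both spheroid libraries, with log2 folds of -2.17 (-2.80 to -1.70) and -1.39 (-1.88 to -0.97). HERC5, its neighbour on chr4, was lower in A549 spheroids at -1.06 (-1.62 to -0.59), and its log2 fold was -0.62 (-1.07 to -0.21) in the H1993 pair. USP18 had 109 to 153 reads in the 4 libraries, and neither of its folds reached 2.

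IFI6, a mitochondrial protein that restrains cell death, showed the widest gap between the folds of the 2 pairs, not between the lines within a culture. It had 390 reads in A549 spheroids against 118 in A549 adherent cells, and 85 in H1993 spheroids against 1217 in the library labelled H1993 adherent. The log2 fold was 1.65 (1.36 to 1.97) in the A549 pair and -3.63 (-3.99 to -3.34) in the H1993 pair. The last library was the only one above 390 reads, and without it IFI6 can be compared between the spheroids, where H1993 was lower than A549 at -2.06 (-2.44 to -1.74).

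IFI44 and IFI44L, neighbours on chr1 with no settled function, were also high in that library alone. IFI44 had 11 reads in A549 spheroids against 9 in A549 adherent cells, and 6 in H1993 spheroids against 82 in the library labelled H1993 adherent. IFI44L had 10 reads in A549 spheroids against 4 in A549 adherent cells, and 5 in H1993 spheroids against 77 in the library labelled H1993 adherent. The log2 fold of IFI44 between the H1993 libraries was -3.23 (-5.08 to -2.41), and that of IFI44L was -3.34 (-5.42 to -2.48), not counted because IFI44L did not pass the filter. IFI27 had 22 reads in A549 spheroids against 12 in A549 adherent cells, and 2 in H1993 spheroids against 27 in the library labelled H1993 adherent. IFI35 had 386 reads in A549 spheroids against 195 in A549 adherent cells, and 462 in H1993 spheroids against 366 in the library labelled H1993 adherent, with log2 folds of 0.92 and 0.52, both under 2-fold.

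Among the remaining effectors, ISG20, an exonuclease that degrades viral RNA, had 627 reads in A549 spheroids against 114 in A549 adherent cells, and 206 in H1993 spheroids against 218 in the library labelled H1993 adherent. Its log2 folds were 2.38 (2.11 to 2.70) and 0.10 (-0.18 to 0.38). The spheroid library of A549 was thus the only one with more than 218 reads. SAMD9 restrains poxvirus growth, and so does its neighbour SAMD9L. SAMD9 had 102 reads in A549 spheroids against 298 in A549 adherent cells, and 86 in H1993 spheroids against 318 in the library labelled H1993 adherent. It was lower in both spheroid libraries, at -1.59 (-1.95 to -1.28) and -1.68 (-2.06 to -1.36). SAMD9L had 63 reads in A549 spheroids against 66 in A549 adherent cells, and 25 in H1993 spheroids against 168 in the library labelled H1993 adherent, with log2 folds of -0.13 (-0.65 to 0.39) and -2.48 (-3.23 to -1.95).

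TRIM22, an antiviral ubiquitin ligase, had 34 reads in A549 spheroids against 96 in A549 adherent cells, and 12 in H1993 spheroids against 63 in the library labelled H1993 adherent. It too was lower in both, at -1.51 (-2.17 to -0.98) and -2.05 (-3.24 to -1.30). LGALS3BP had 3453 reads in A549 spheroids against 1804 in A549 adherent cells, and 3061 in H1993 spheroids against 4692 in the library labelled H1993 adherent, with log2 folds of 0.87 (0.79 to 0.96) and -0.43 (-0.50 to -0.37). PARP9, which forms a complex with an overlapping gene's product, DTX3L, stayed under 2-fold at -0.01 and -0.48. MX1 had 17 reads in A549 spheroids against 23 in A549 adherent cells, and 1 in H1993 spheroids against 28 in the library labelled H1993 adherent, with a log2 fold of -3.20 (-9.98 to -2.03) in the H1993 pair. CMPK2, a mitochondrial nucleotide kinase, had 11 reads in A549 spheroids against 6 in A549 adherent cells, and 35 in H1993 spheroids against 16 in the library labelled H1993 adherent, with a log2 fold of 1.21 (0.42 to 2.27) in the H1993 pair. RSAD2, or viperin, which overlaps it, had 1 to 5 reads in every library.

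**Figure D3:**
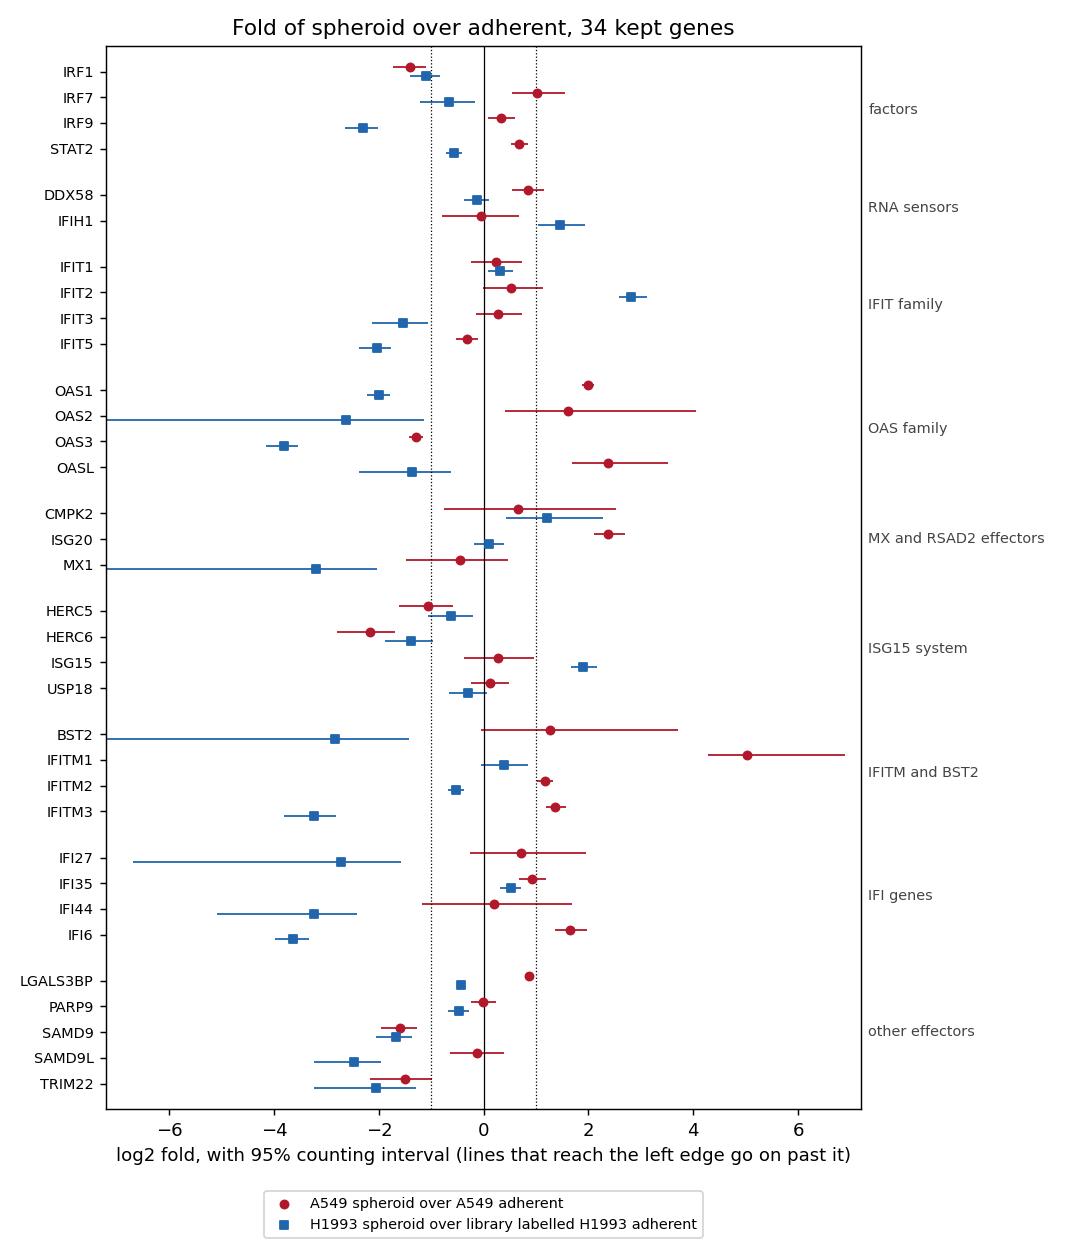
Log2 fold (x axis) with its 95% counting interval for the 34 kept genes, grouped by role, with red circles for A549 spheroids over A549 adherent cells and blue squares for H1993 spheroids over the library labelled H1993 adherent, and dotted lines at 2-fold. Most blue squares lie left of 0, with IFIT2, ISG15, IFIH1 and CMPK2 past 2-fold on the right, while the red circles of OAS1, OASL, ISG20, IFI6 and the 3 IFITM genes lie past 2-fold on the right.

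The lines can also be compared within a culture. H1993 spheroids over A549 spheroids, a comparison without the library labelled H1993 adherent, had 17 members lower and 5 higher of 34 (50.0% and 14.7%), where 19.1% and 18.0% of all genes were. The median log2 fold of the members was -1.05, and that of all genes was 0.01. The 5 higher members in H1993 spheroids were IFIT1, IFIT2, ISG15, IFIH1 and CMPK2. IFIT2 and ISG15 each had a log2 fold of 3.72, with intervals of 3.41 to 4.14 and 3.34 to 4.24, IFIH1 of 2.25 (1.77 to 2.91) and IFIT1 of 2.02 (1.68 to 2.42). At the other end IFITM3 was lower in H1993 spheroids at -4.18 (-4.77 to -3.78), OAS1 at -3.78 (-4.01 to -3.59) and OAS3 at -2.45 (-2.80 to -2.17). With a floor of 3 reads set in H1993 spheroids, OAS2 and BST2 were 5.22-fold and 3.99-fold lower there. Their counting intervals allow log2 folds up to -1.93 and -1.49. All 4 OAS genes and all 4 of IFITM1, IFITM2, IFITM3 and BST2 were lower in H1993 spheroids than in A549 spheroids, though IFITM1 did not pass the filter with unique reads and IFITM2 stayed just under 2-fold, at -0.96, as a ratio of TPM.

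The library labelled H1993 adherent over A549 adherent cells had 11 members higher and 0 lower of 34 (32.4% and 0.0%), where 6.94% and 5.49% of all genes were. The median log2 fold of the members was 0.76, and that of all genes was 0.00. The 11 were IFI6, IFI44, IFIT1, IFIT2, IFITM1, ISG15, OASL, IRF9, DDX58, SAMD9L and LGALS3BP. IFI6 had the greatest of these log2 folds with a firm count, 3.22 (2.96 to 3.52), followed by IFI44 at 2.81 (2.06 to 4.24), ISG15 at 2.10 (1.64 to 2.72) and IFIT1 at 1.93 (1.56 to 2.37). IFITM1 had the same 3.22 (2.40 to 5.08), and 1.93 with unique reads. OAS3 differed little there, at 0.07 (-0.03 to 0.18), as did SAMD9 at -0.04 (-0.27 to 0.20).

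A fit over both lines, with line and culture as terms, gave the only test the design allows, with 1 residual degree of freedom. By edgeR's quasi-likelihood test with Benjamini-Hochberg adjustment, 0 of 15273 genes and 0 of the 34 members differed between spheroid and adherent culture, so the share of genes called was 0.0% in each direction. At an unadjusted p under 0.05 there were 1258 genes (8.24%) and 3 members, HERC6, OAS3 and SAMD9 (8.82%). The smallest adjusted p of a member was 0.482, for OAS3, whose log2 coefficient was -2.55 with a lower value in the spheroid library of both lines. DESeq2 with the same terms called 591 genes, and OAS3 was the only member among them with an adjusted p of 0.0128. The median log2 coefficient of the members was -0.34. The fit holds the library labelled H1993 adherent, and with no term for line the median of the members was 0.54 without it and -0.93 without A549 spheroids.

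The other genes of the interferon pathway were taken from lists of ligands, receptors, sensors, inhibitors and further targets. Of 21 interferon genes 19 had no read in either library of each pair. IFNE, an epithelial type I interferon, was the only one with more than 3 reads, 150 in A549 spheroids against 94 in A549 adherent cells, and 36 in H1993 spheroids against 144 in the library labelled H1993 adherent, but none of its reads was unique. IFNG had 3 reads in H1993 spheroids and IFNL1 had 1 read in A549 spheroids.

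All 9 receptor subunits and kinases passed the filter. Between the A549 libraries none was higher and JAK1 was the only one lower (11.1%, where 10.3% of all genes were). JAK1 had 1174 reads in A549 spheroids against 3524 in A549 adherent cells and a log2 fold of -1.65 (-1.75 to -1.55). Between the H1993 libraries none was higher and 5 were lower (55.6%, where 18.0% of all genes were), namely IFNAR2, IFNGR2, IFNLR1, IL10RB and JAK2. The type II receptor subunits differed in sign, with log2 folds of -1.39 (-1.56 to -1.24) for IFNGR2 and 0.86 (0.73 to 0.99) for IFNGR1. IFNAR2 had 134 reads in H1993 spheroids against 693 in the library labelled H1993 adherent, a log2 fold of -2.17 (-2.46 to -1.92), with a minority of its reads unique. IFNAR1, the other type I subunit, had 715 against 895 reads, at -0.14 (-0.28 to 0.00).

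Of 14 kept sensors and signalling proteins upstream of interferon, none was higher and 4 were lower in A549 spheroids, CGAS, TLR3, IKBKE and TRAF3. The shares were 0.0% higher and 28.6% lower, where 12.4% and 10.3% of all genes were. Between the H1993 libraries 3 were higher and 5 lower in spheroids (21.4% and 35.7%, where 17.0% and 18.0% of all genes were). CGAS, the cytosolic DNA sensor, had 111 reads in A549 spheroids against 217 in A549 adherent cells, and 260 in H1993 spheroids against 59 in the library labelled H1993 adherent. It was the only one of these lower in one pair and higher in the other, with log2 folds of -1.02 (-1.37 to -0.69) and 2.28 (1.91 to 2.76). TICAM1 and TBK1, an adaptor and a kinase that lead to interferon production, were the other 2 higher in H1993 spheroids, at 1.22 and 1.44. IFI16, another DNA sensor, had 36 reads in H1993 spheroids against 389 in the library labelled H1993 adherent, at -3.18 (-3.79 to -2.76). IKBKE, a kinase related to TBK1, was lower in both spheroid libraries at -1.09 and -2.47.

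Of 9 kept feedback inhibitors 1 was higher and 1 lower in A549 spheroids (11.1% each, where 12.4% and 10.3% of all genes were). In H1993 spheroids 2 were higher and 1 lower (22.2% and 11.1%, where 17.0% and 18.0% of all genes were). SOCS3 was the lower one in A549 spheroids, with 131 reads against 481 in A549 adherent cells and a log2 fold of -1.92 (-2.23 to -1.66). TRIM21 was the lower one in H1993 spheroids, with 30 reads against 222 in the library labelled H1993 adherent, at -2.63 (-3.31 to -2.15). Of 29 kept further effectors, 1 was higher and 2 lower in A549 spheroids (3.45% and 6.9%, where 12.4% and 10.3% of all genes were). In H1993 spheroids 3 were higher and 9 lower (10.3% and 31.0%, where 17.0% and 18.0% of all genes were). Among the lower ones were TRIM21 again, PARP14 at -2.26 and UBE2L6, the conjugating enzyme for ISG15, at -2.49. PLSCR1, a phospholipid scramblase, was lower in both spheroid libraries, at -1.19 and -1.76. Their median log2 fold was -0.30 in each pair.

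Among 9 kept targets of type II interferon, 4 were higher and 1 lower in A549 spheroids (44.4% and 11.1%, where 12.4% and 10.3% of all genes were). In H1993 spheroids 3 were higher and 2 lower (33.3% and 22.2%, where 17.0% and 18.0% of all genes were). GBP1, a GTPase that attacks pathogen membranes, was the lower one in A549, with 10 reads in A549 spheroids against 68 in A549 adherent cells, and had 8 in H1993 spheroids against 219 in the library labelled H1993 adherent. Its log2 folds were -2.60 (-3.95 to -1.86) and -4.30 (-5.82 to -3.59). CD274, which encodes the checkpoint ligand PD-L1, went the other way, with 46 reads in A549 spheroids against 12 in A549 adherent cells, and 136 in H1993 spheroids against 36 in the library labelled H1993 adherent. Its log2 folds were 1.72 (0.94 to 2.93) and 2.04 (1.56 to 2.67). GBP1 and CD274 were thus opposite to each other in both lines.

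**Figure D4:**
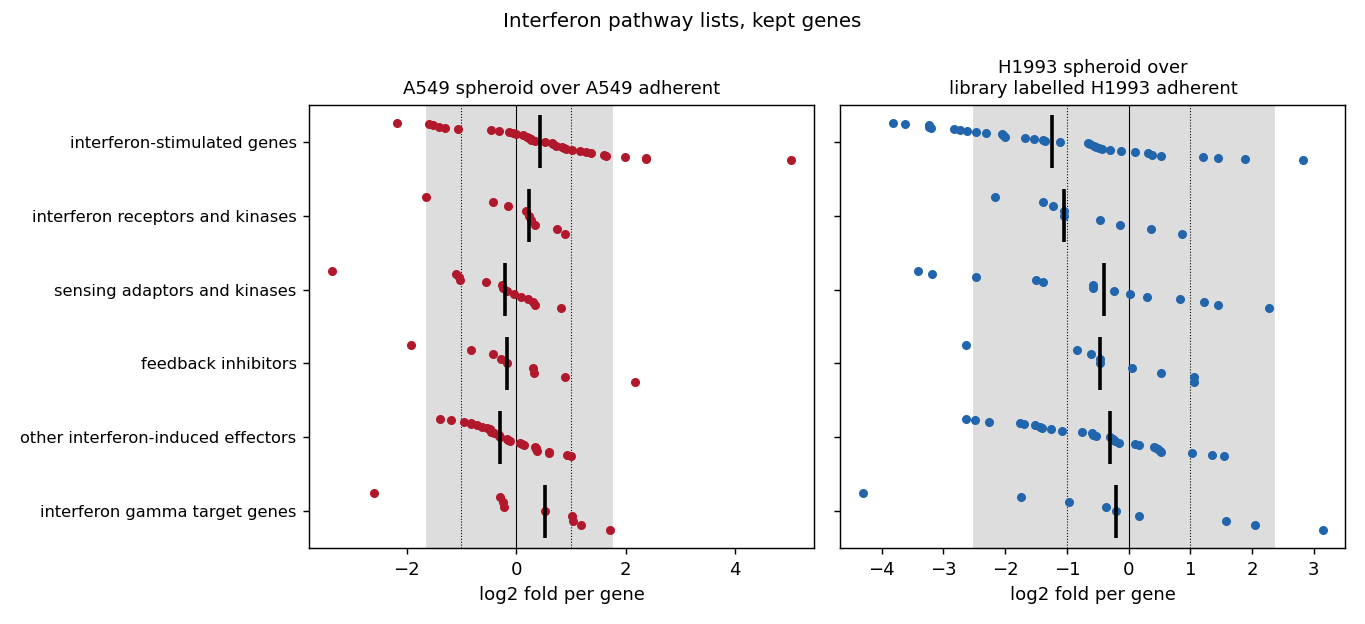
Log2 fold per gene (x axis) for the kept genes of 6 interferon lists, A549 spheroids over A549 adherent cells on the left and H1993 spheroids over the library labelled H1993 adherent on the right, 1 point per gene. Black bars are list medians, dotted lines mark 2-fold and the grey band holds the central part of all kept genes, from the 5th to the 95th percentile. The interferon-stimulated genes have their median at 0.44 on the left and at -1.23 on the right, where the receptors and kinases have theirs at -1.05.

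Markers of cell types went in different directions. The labels call both lines lung epithelial, and KRT7 was high in all 4 libraries (10297 to 34446 reads), while NKX2-1 had 13 reads in H1993 spheroids against 12 in the library labelled H1993 adherent, with none in A549. NKX2-1 had 1 unique read in H1993 spheroids and 1 in the library labelled H1993 adherent. EPCAM had 4716 reads in H1993 spheroids, against 266 in the library labelled H1993 adherent. Between the H1993 libraries 6 of 8 epithelial markers were higher and 0 lower, where 17.0% and 18.0% of all genes were. Between the A549 libraries 2 were higher and 2 lower, where 12.4% and 10.3% of all genes were. The 12 leukocyte markers summed to 142 TPM in A549 spheroids, 35.0 TPM in A549 adherent cells, 120 TPM in H1993 spheroids and 72.9 TPM in the library labelled H1993 adherent, most of it CD68, and 7, 7, 5 and 7 of the 12 were at 0 in that order of libraries. Between 7.34% and 11.5% of the CD68 reads were unique per library. PTPRC had 45 reads in H1993 spheroids and 0 in the other libraries. CD2, AIF1 and NKG7 were at 0 in all 4. CD14, a monocyte receptor, had 53 reads in A549 spheroids against 74 in A549 adherent cells, and 29 in H1993 spheroids against 214 in the library labelled H1993 adherent, lower in the H1993 pair at -2.62 (-3.31 to -2.14). LYZ, which encodes lysozyme, had 40 reads in A549 spheroids against 2 in A549 adherent cells, a log2 fold of 3.35 (2.31 to 7.35). It had 11 in H1993 spheroids against 0 in the library labelled H1993 adherent. With a floor of 3 reads set in the latter it was 4.16-fold higher, and its counting interval allows log2 folds down to 1.51. Fibroblast markers summed to 28.0, 9.45, 19.6 and 35.8 TPM and endothelial markers to 3.34, 0.502, 2.67 and 1.47 TPM in the same order of libraries. Of 5 kept fibroblast markers 2 were higher and 1 lower in the A549 pair, where 12.4% and 10.3% of all genes were. In the H1993 pair 1 was higher and 3 lower, where 17.0% and 18.0% of all genes were. LUM, a matrix proteoglycan, had 320 reads in A549 spheroids against 24 in A549 adherent cells, and 35 in H1993 spheroids against 339 in the library labelled H1993 adherent. Its log2 folds of 3.57 (3.07 to 4.34) and -3.03 (-3.64 to -2.59) were opposite in sign, as were those of IFI6 and IFITM3. Those of COL3A1 were opposite too, at 0.68 and -1.82. The other kept fibroblast markers had the same sign in both pairs, COL1A1 at 0.76 and 1.23, DCN at 1.98 and 0.94 and THY1 at -3.07 and -1.87. DCN, 1 of the 2 higher in the A549 pair, had 6 reads in A549 spheroids against 0 in A549 adherent cells. With a floor of 3 reads set in the latter it was 1.91-fold higher. Of the kept endothelial markers, PECAM1 was at 4.99 and 2.24 and CDH5 at -2.20 and 0.14. CDH5 had 0 reads in A549 spheroids against 7 in A549 adherent cells, 2.44-fold lower with that floor. The part of these cell types in the interferon results was not tested.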

How the data were processed

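Total RNA of each sample went into 1 stranded mRNA library, per the labels' protocols, and the 4 labels gave line and culture. The genome build was hg38, per the submitters' processing notes, with the aligner, the counter, the annotation release and the use of strand in counting not given in the sources used here. Per the file headers, the authors deposited whole-number counts of total and unique reads per gene over exons, introns and junctions. The deposited TPM served for levels and for 1 alternative, and the deposited RPKM, equal to the column of expression values in all 43622 genes, was not used. The 40 members and the 11 other gene lists were chosen with earlier results of these data known. 1 gene of the pathway lists is not reported here and was left out of their counts.

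Total exon counts were scaled by TMM factors and filtered with filterByExpr (edgeR 4.0.16, R 4.3.3), by culture. A prior count of 2 entered the log2 folds, and intervals were exact Clopper-Pearson 95% intervals of the 2 counts. Reads that PCR copied from 1 molecule are not marked, so intervals and floors cover counting error only, and 3 reads, the floor for a gene at 0, were 0.170 to 0.196 CPM. The fit over both lines used glmQLFit and glmQLFTest with Benjamini-Hochberg adjustment at 0.05, and DESeq2 1.42.0 as an alternative. Values in all 4 libraries were planned for the 8 members of largest fold in each comparison with at least 100 reads in the higher library, for STAT2 and IRF9 and for the top 5 by TPM. Those of further members, and the 250-base promoter window, were added after the values were seen. Genes with few unique reads or overlapping neighbours are uncertain. The 7 alternatives for each pair were size factors of the DESeq2 type, library size alone, no filter, a filter per library, a prior count of 0.5, unique reads and the ratio of TPM with 0.1 added.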

Additional observations from a re-analysis of the deposited data

Results flagged for a closer look

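The members IFI6, IFITM3, OAS1, OAS2 and OASL were singled out because their 2 pairs of libraries moved in opposite directions. The log2 fold of the A549 pair minus that of the H1993 pair was 5.28 for IFI6, 4.60 for IFITM3, 4.23 for OAS2, 3.99 for OAS1 and 3.74 for OASL. With 1 library per group this difference was not tested, and the part of the library labelled H1993 adherent in it was not tested either. OAS2 rests on 17 reads or fewer per library.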

How the results depend on the processing

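Under the 7 alternatives, the counts of members higher and lower in each of the 4 comparisons stayed within 1.5 times of those given, and the medians moved by less than the typical counting error of a member. No called member turned its direction. Of 24 changes of call, those in IFITM1 and IRF9 came with unique reads, which left both below the filter, and without a filter or with a filter per library IFI44L and MX2 were called in both comparisons with the library labelled H1993 adherent and EPSTI1 between the spheroids. The remaining changes were in IRF7, BST2, SAMD9L, IFITM2, IFI27 and CMPK2, in 1 or 2 comparisons each. Scaling by library size alone moved the median of all genes to -0.11 in the A549 pair, and the ratio of TPM moved it to -0.11 there and to 0.17 between the spheroids, where the small difference of LGALS3BP, -0.06, became 0.11, and 0.03 by library size alone. In the fit over both lines DESeq2 called 1 member, OAS3, where edgeR called 0. The median of the members, -0.34, ranged from -1.23 to 0.54 when a library or a line was left out, and no member was called with a library left out. The number of genes called in that fit was 0 with the filter and 173 without it, 591 by DESeq2 and 158 without H1993 spheroids. That fit pairs the cultures within each line through its term for line; without the term its median was -0.02 and 0 members were called. The labels carry no replicate numbers, and with 1 library per group none could be left out of a single pair. Precision is limited by depth for OAS2, BST2, MX1, IFI27 and CMPK2, which had under 40 reads in every library.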

Other observations

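Reads over introns were outside the comparisons above. They made up 6.53% of gene reads of the 40 members in A549 spheroids against 7.14% in A549 adherent cells, and 7.54% in H1993 spheroids against 6.11% in the library labelled H1993 adherent. Intron reads of OAS1 numbered 534 in A549 spheroids against 137 in A549 adherent cells, and 51 in H1993 spheroids against 161 in the library labelled H1993 adherent. Those of IFIT2 numbered 79 in H1993 spheroids against 10 in the library labelled H1993 adherent. ISG15 had 126 intron reads in H1993 spheroids against 109 in the library labelled H1993 adherent. It had 50 in A549 spheroids against 64 in A549 adherent cells, more than its exon reads in both A549 libraries. The 3 genes were picked after their values were seen.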
